A study of Sus scrofa with 12 samples.

Results

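The SLC25 family of mitochondrial carriers was described in Semimembranosus muscle, a ham muscle, of 12 Italian Large White pigs. The members were the genes of the count table whose pig Ensembl name began with SLC25A, without SLC25A20, together with UCP2 and UCP3. Of 43 names that met this rule, 42 had a row among the 25880 genes of the table, and the identifier of SLC25A30 was not among its rows. The 6 pigs numbered 1 to 6 were labelled as having high intramuscular fat (high IMF) and the 6 pigs numbered 7 to 12 as having low intramuscular fat (low IMF). None was treated. All were kept in one environment on one diet, slaughtered commercially at 150 to 160 kg live weight, and were gilts or barrows by the study's methods. Each group was labelled as 3 females and 3 males, and the ages were 234 to 244 days in high IMF pigs and 229 to 249 days in low IMF pigs. One library of polyadenylated RNA was sequenced per pig, so a pig is the replicate, and the deposited values are read counts per gene. The libraries held between 131048805 and 178013997 counts.

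The counts of 2 genes of the Y chromosome, EIF1AY and KDM5D, went against the labelled sex in 6 of 12 pigs, 2 with high IMF and 4 with low IMF. Each group held 3 pigs with at least 3734 such counts and 3 pigs with at most 6. Why counts and labels differed was not tested. The group and age of each pig come from the same labels, so they carry the same doubt. The defining genes of skeletal muscle that had a row were abundant in every pig, with summed CPM (counts divided by the normalized library size in units of 1e6) of 5 genes between 34000 and 64390. Adipocyte genes were low, with a summed level over 6 genes of 57.7 to 134.9 CPM in high IMF and 33.6 to 147.8 CPM in low IMF.

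The carriers of this family are small membrane proteins built from repeated helices, most of which sit in the inner mitochondrial membrane. They move nucleotides, phosphate, keto acids, amino acids, cofactors and protons between the cytosol and the matrix. In skeletal muscle the family is known for the exchange of ADP for ATP, the import of phosphate for oxidative phosphorylation, and the aspartate and malate shuttle that carries reducing equivalents from glycolysis into mitochondria. UCP3 is an uncoupling protein known for its expression in muscle, and UCP2 is its more widely expressed relative.

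The genes lay on 14 chromosomes, with SLC25A6 on an unplaced scaffold. UCP2 and UCP3 were neighbours on chromosome 9, 13.5 kb apart and on the same strand. SLC25A23 and SLC25A41 were 1.93 kb apart on chromosome 2, and SLC25A43 and SLC25A5 were 12.5 kb apart on chromosome X. The sequence just upstream of the RefSeq gene start on Sscrofa11.1 is shown for 4 members. SLC25A3 and SLC25A12 are shown because their levels went together across pigs, and UCP2 and UCP3 because they were neighbours with different levels. Each line gives 250 bases, 5′ to 3′ on the strand of the gene, and capitals mark AGGTCA, the core hexamer bound by many nuclear receptors, on either strand (TGACCT is its reverse complement).
SLC25A3, chr5:85292337-85292586, minus strand: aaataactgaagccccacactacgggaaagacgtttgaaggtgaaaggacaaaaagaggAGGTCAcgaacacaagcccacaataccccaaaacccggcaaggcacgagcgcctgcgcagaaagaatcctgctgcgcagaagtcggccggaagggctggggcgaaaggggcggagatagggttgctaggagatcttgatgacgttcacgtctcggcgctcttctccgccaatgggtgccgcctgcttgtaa
SLC25A12, chr15:78021931-78022180, minus strand: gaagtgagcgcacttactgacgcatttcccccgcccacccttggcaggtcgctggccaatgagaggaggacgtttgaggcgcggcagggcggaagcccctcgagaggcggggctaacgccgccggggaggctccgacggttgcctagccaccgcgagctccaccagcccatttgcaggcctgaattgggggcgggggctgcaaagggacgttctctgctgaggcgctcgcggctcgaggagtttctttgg
UCP2, chr9:8364553-8364802, minus strand: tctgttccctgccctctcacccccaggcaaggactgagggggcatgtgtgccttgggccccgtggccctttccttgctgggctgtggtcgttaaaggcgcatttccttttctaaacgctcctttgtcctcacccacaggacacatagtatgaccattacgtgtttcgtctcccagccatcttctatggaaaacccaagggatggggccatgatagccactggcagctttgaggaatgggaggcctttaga
UCP3, chr9:8389453-8389702, minus strand: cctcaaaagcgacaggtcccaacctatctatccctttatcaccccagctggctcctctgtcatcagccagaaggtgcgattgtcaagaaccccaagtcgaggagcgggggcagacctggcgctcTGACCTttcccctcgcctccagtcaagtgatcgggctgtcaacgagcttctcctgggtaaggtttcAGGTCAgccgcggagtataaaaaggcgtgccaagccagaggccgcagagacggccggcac

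The UCP3 window held this hexamer at 126 and at 60 bases upstream of the gene start, and the SLC25A3 window held it at 191 bases upstream. The windows of SLC25A12 and UCP2 held no match to it. Over the 41 members with such a window the hexamer was found in 8 (19.5%), against 12.2% of 19508 gene windows of the same length. The E-box CACGTG was found in 4 member windows (9.76%, against 6.4%). The CRE letters TGACGTCA were found in the SLC25A36 window and the NRF1 core CGCATGCG in the SLC25A44 window, which is 2.44% of the members in each case, against 1.7% and 1.51% of all windows. The longer element TCAAGGTCA of estrogen-related receptors, which contains the hexamer, was found in no member window and in 0.333% of all windows. All motifs were searched on both strands. A match describes letters only.

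To compare levels between genes, CPM were divided by the exon length of the RefSeq gene in kb. The phosphate carrier SLC25A3 (chr5:85284405-85292336) and the ADP/ATP carrier SLC25A4 (chr15:46193498-46197989), the muscle and heart form known as ANT1, were the dominant carriers. Their median levels over 12 pigs were 269.8 and 256.5 CPM per kb. Together they made up 67.6% of the summed level of all members in the median pig and between 61.1% and 73.6% in single pigs. The ATP-Mg/phosphate carrier SLC25A25 came next at 57.9 CPM per kb, followed by the aspartate/glutamate carrier SLC25A12 at 46.8 and the oxoglutarate/malate carrier SLC25A11 at 31.1. These 5 carriers accounted for 80.7% to 87.1% of the summed level. SLC25A36, a pyrimidine nucleotide carrier, had 15.0 CPM per kb, SLC25A46 of the outer membrane 14.5, and SLC25A24, another ATP-Mg/phosphate carrier, 12.1.

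The order of the first and second place depended on the gene model. Per kb of exon, SLC25A4 was above SLC25A3 in 6 of 12 pigs, with a ratio between 0.751 and 1.5. Per kb of coding sequence SLC25A4 was higher in all 12 pigs, with medians of 458.1 against 346.7 CPM per kb. With coding length the share of both together was 59.7%. The RefSeq models of SLC25A25 and SLC25A24 held coding sequence only, which raises their level per kb of exon beside that of the other members. By coding length SLC25A36 was in the third place at 79.2 CPM per kb, and SLC25A25 was in the fifth place at 57.9.

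**Figure D1:**
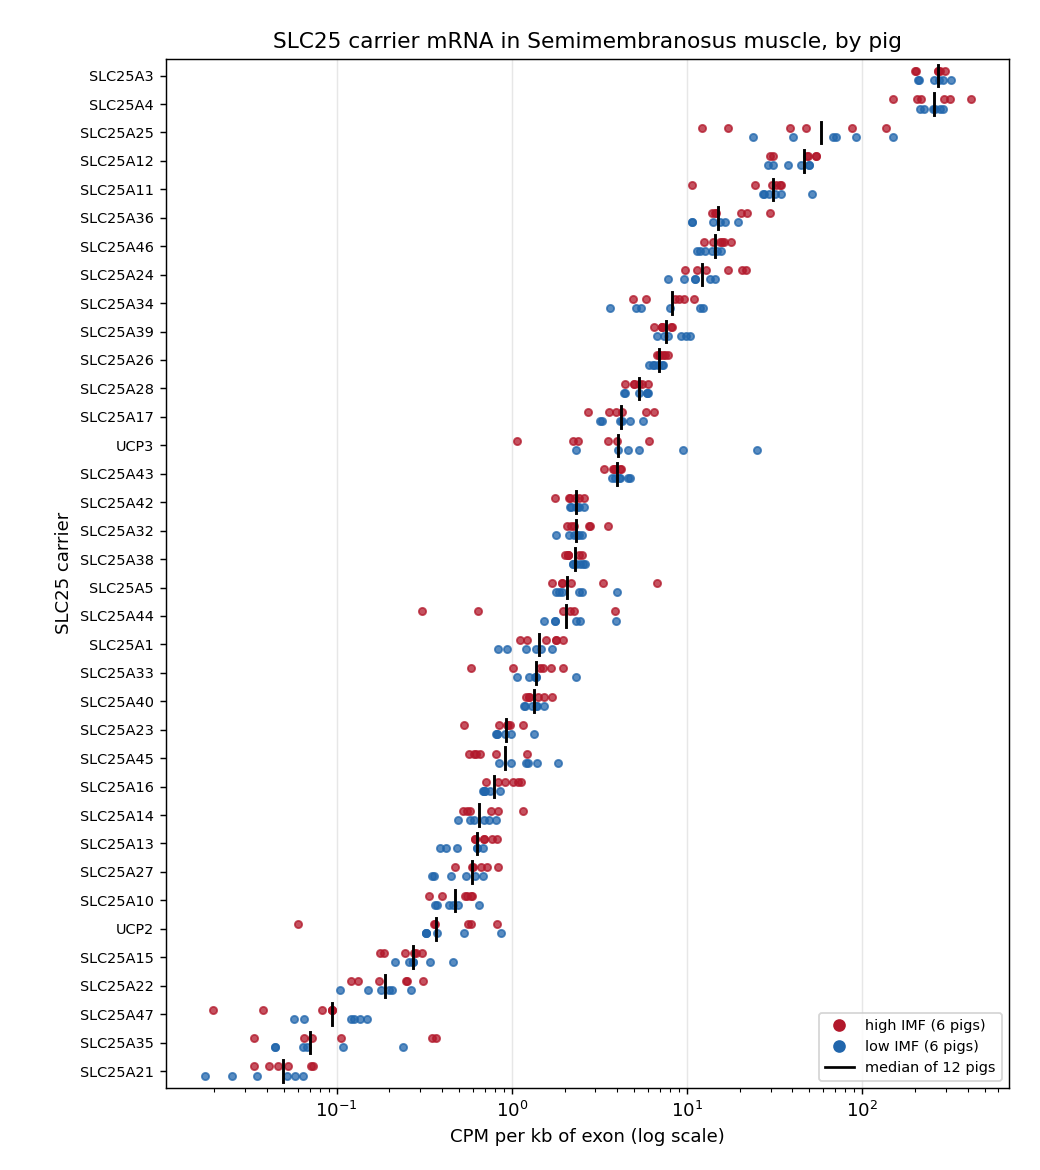
Level of 36 tested SLC25 carriers in each pig, in CPM per kb of exon on a log axis, ordered by the median of 12 pigs (black bar), with high IMF pigs in red and low IMF pigs in blue. SLC25A3 and SLC25A4 stand at 149.8 CPM per kb or more in every pig, and UCP3 of 1 low IMF pig lies far to the right of the others.

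**Figure D2:**
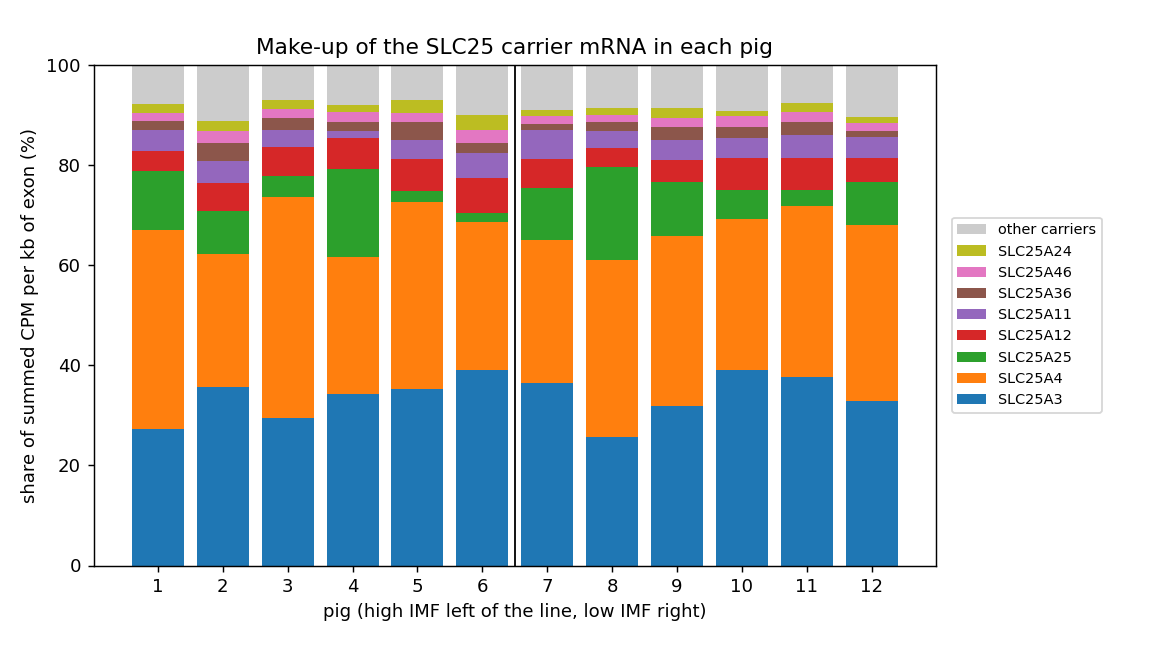
Share of each of the 8 highest carriers, and of all other carriers together, in the summed CPM per kb of exon of the members, by pig (high IMF left of the line, low IMF right). SLC25A3 and SLC25A4 fill 61.1% to 73.6% of each bar, and the SLC25A25 share runs from 1.76% to 18.5%.

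Within pairs of related carriers, 1 form prevailed in muscle. SLC25A12 (aralar) was 43.1 to 98.0 times higher per kb of exon than SLC25A13 (citrin), the other aspartate/glutamate carrier. SLC25A4 was 30.5 to 192 times higher than SLC25A5 (ANT2). UCP3 was above UCP2 in 12 of 12 pigs, by a factor between 1.29 in pig 6 and 47.2 in pig 12. Among the ATP-Mg/phosphate carriers, SLC25A25 was above SLC25A24 in 10 of 12 pigs, and both were above SLC25A23 in 12 of 12. SLC25A36 was above SLC25A33, its relative among the pyrimidine nucleotide carriers, in 12 of 12 pigs. Between groups, no ratio of these pairs reached the 0.05 threshold, with exact permutation p, two-sided over all arrangements of the pigs, of 0.156 (SLC25A24 over SLC25A23) or higher.

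The other tested carriers were lower. SLC25A34 (8.24 CPM per kb), a poorly characterised relative of yeast oxaloacetate carriers, SLC25A39 (7.61), linked to glutathione import, and the S-adenosylmethionine carrier SLC25A26 (6.94) led them. The peroxisomal cofactor carrier SLC25A17, the iron carrier SLC25A28 (mitoferrin-2), UCP3 and SLC25A43 had medians between 3.98 and 5.30. The coenzyme A carrier SLC25A42, the folate carrier SLC25A32, the glycine carrier SLC25A38, SLC25A5 and the branched-chain amino acid carrier SLC25A44 had medians between 2.05 and 2.31. The citrate carrier SLC25A1, SLC25A33 and SLC25A40 lay between 1.34 and 1.42. The other 13 tested members had medians under 1 CPM per kb, down to 0.049 for the oxodicarboxylate carrier SLC25A21.

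The other 5 members did not pass the filter on low counts. SLC25A31, the ADP/ATP carrier known from testis, and SLC25A6 (ANT3) were listed at 0 in every pig. If each count were a separate fragment, a count of 0 would allow up to 3 counts. That is 0.0169 to 0.0229 CPM at the depth of these libraries, and covers counting error only. Counts in this table were not all separate fragments, so this bound need not hold and the true one can be higher. SLC25A41, SLC25A48 and SLC25A53 had at most 9 counts in any pig, and each of their non-zero counts was 3, 6 or 9. SLC25A4, SLC25A5 and SLC25A6 are paralogues, and how reads with several alignments were counted is not given in the sources used here, so the split of counts among the 3 genes is uncertain.

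No member passed the test between high and low IMF. In the edgeR fit, 0 of the 37 tested members reached an adjusted p of 0.05, and 0% of all 14262 genes tested did. The lowest adjusted p of a member was 0.419, for SLC25A45. With DESeq2's Wald test over all genes with at least 1 count, 0 members reached this threshold, beside 0.497% of 20341 genes. With limma-voom 0 members and 0 of 14262 genes did. An unadjusted p of at most 0.05 was found by edgeR for 5 of 37 members (13.5%), and for 10.4% of all genes. Of these, 2 were higher in low IMF, SLC25A45 and UCP3, where 5.38% of all genes were. The other 3 were higher in high IMF, SLC25A16, SLC25A13 and SLC25A24, where 5.04% of all genes were. This count ran from 3 (without pig 5, 10 or 12) to 9 (without pig 11) with single pigs left out. Over all genes it was 1301 of 14423, 1451 of 14423 and 1376 of 14350 in the first 3 of these fits. Without pig 11 it was 1572 of 14415. In the 6 pigs whose Y-linked counts went with their labelled sex, 1 member, UCP3, had such a p, beside 607 of 14972 genes. In 0 of 37 members did the values of the groups not overlap, against 0.659% of all genes.

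As a set, the members were centred close to 0. The median log2 fold change (log2FC), low IMF over high IMF, was -0.077 over the 37 members and -0.0083 over all genes tested, with 15 members above and 22 below 0. The lower and upper quartiles of the members were -0.21 and 0.12, and 4 members exceeded 0.58 in size (10.8%, against 8.45% of all genes). The CPM summed over the members were 1088, 1392 and 1738 in high IMF (lowest, median, highest) and 1212, 1423 and 1579 in low IMF. The groups overlapped over nearly the whole range, and the members took 0.109% to 0.174% of all counts. In whole muscle, a lower level of a gene and fewer cells that express it cannot be told apart.

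**Figure D3:**
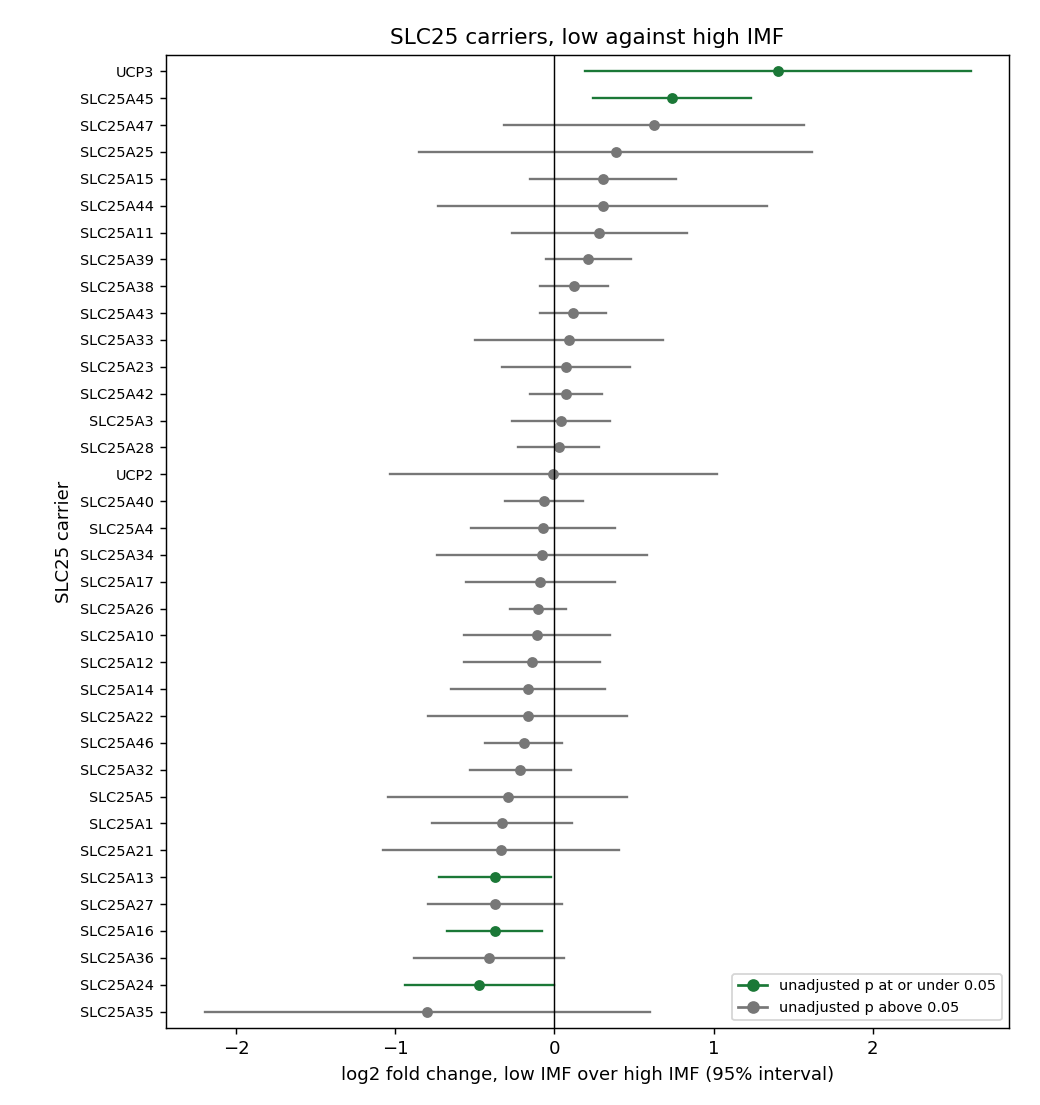
Log2 fold change, low over high IMF, of 36 tested carriers, in green where the unadjusted p by edgeR was at most 0.05. The 95% interval uses the standard error of the edgeR fit and a t distribution with 10 degrees of freedom. UCP3 (1.40) and SLC25A45 (0.74) lie to the right, SLC25A13, SLC25A16 and SLC25A24 to the left, and no member passed the adjusted threshold.

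SLC25A45 (chr2:6851101-6857886), a carrier of the basic amino acid and carnitine subfamily, had the lowest p of the members. Its levels were 1.76, 1.98 and 3.77 CPM in high IMF (lowest, median, highest) and 2.59, 3.77 and 5.67 CPM in low IMF. All 6 low IMF pigs were above the high IMF median. Pig 2, with high IMF, stood among the low IMF pigs at 3.77 CPM, while the other 5 high IMF pigs had at most 2.50 CPM. The log2FC was 0.74 (SE 0.22, n = 6 per group, unadjusted p = 0.0055 by edgeR, adjusted p = 0.419), and the exact permutation p, two-sided, was 0.0108. DESeq2 gave an adjusted p of 0.108. Pig 2 was the only high IMF pig above any low IMF pig, so without it the groups could not overlap. In that fit 270 of 14364 genes did not overlap and 2060 had an unadjusted p of at most 0.05. The log2FC of SLC25A45 was then 0.93 and the adjusted p by edgeR 0.135.

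UCP3 (chr9:8378023-8389452) had the largest log2FC of the members, 1.40 (SE 0.54, unadjusted p = 0.022, adjusted p = 0.441 by edgeR). Its levels were 2.39, 6.62 and 13.5 CPM in high IMF and 5.22, 11.06 and 56.2 CPM in low IMF. The highest value, of pig 12, rested on 9599 counts, while the other 11 pigs had 301 to 2315 counts. Pig 7 followed at 21.3 CPM, and the other 4 low IMF pigs lay within the range of the high IMF pigs. The exact permutation p, two-sided, was 0.0844. Without pig 12 the log2FC was 0.70 and the unadjusted p 0.113.

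UCP2 (chr9:8358559-8364552), the neighbour of UCP3, had a log2FC near 0. Its levels were 0.0819, 0.627 and 1.12 CPM in high IMF and 0.438, 0.474 and 1.18 CPM in low IMF, and the log2FC was -0.0058 (SE 0.46, adjusted p = 0.998). Pig 4 held the lowest value with 12 counts, where the other pigs had 66 to 141. The highest UCP2 pigs were 7 and 6, and pig 6 was the lowest for UCP3. Of the relatives of the uncoupling proteins, SLC25A14 had a log2FC of -0.17 and SLC25A27 of -0.37, with adjusted p of 0.827 and 0.506.

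SLC25A16 (chr14:71612273-71651341), linked to coenzyme A, had 2.15, 2.92 and 3.41 CPM in high IMF and 2.06, 2.12 and 2.58 CPM in low IMF. Of 6 low IMF pigs, 5 lay between 2.06 and 2.27 CPM, and pig 2 was the only high IMF pig among them. The log2FC was -0.38 (SE 0.13, unadjusted p = 0.015, adjusted p = 0.427), and the exact permutation p was 0.0152. Pig 2 thus lay with the opposite group for both SLC25A45 and SLC25A16.

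SLC25A13 (chr9:75781421-75980606) had 3.85, 4.33 and 5.12 CPM in high IMF and 2.42, 3.50 and 4.31 CPM in low IMF. All 6 low IMF pigs were below the high IMF median, and 3 of them, pigs 9, 10 and 12, were below every high IMF pig. The log2FC was -0.37 (SE 0.16, unadjusted p = 0.033, adjusted p = 0.446). SLC25A12, with the same transport function, had 97.9, 160.3 and 179.2 CPM in high IMF and 95.3, 135.9 and 163.6 CPM in low IMF, with a log2FC of -0.14 (SE 0.19, adjusted p = 0.834).

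SLC25A24 (chr4:111580186-111632390), which exchanges ATP-Mg for phosphate under calcium control, had 14.0, 21.5 and 31.2 CPM in high IMF and 11.2, 15.9 and 20.8 CPM in low IMF. Pigs 3, 5 and 6 of the high IMF group were above every low IMF pig. The log2FC was -0.47 (SE 0.21, unadjusted p = 0.043, adjusted p = 0.463), and the exact permutation p was 0.0952. Its relative SLC25A23 had a log2FC of 0.074 (adjusted p = 0.915).

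**Figure D4:**
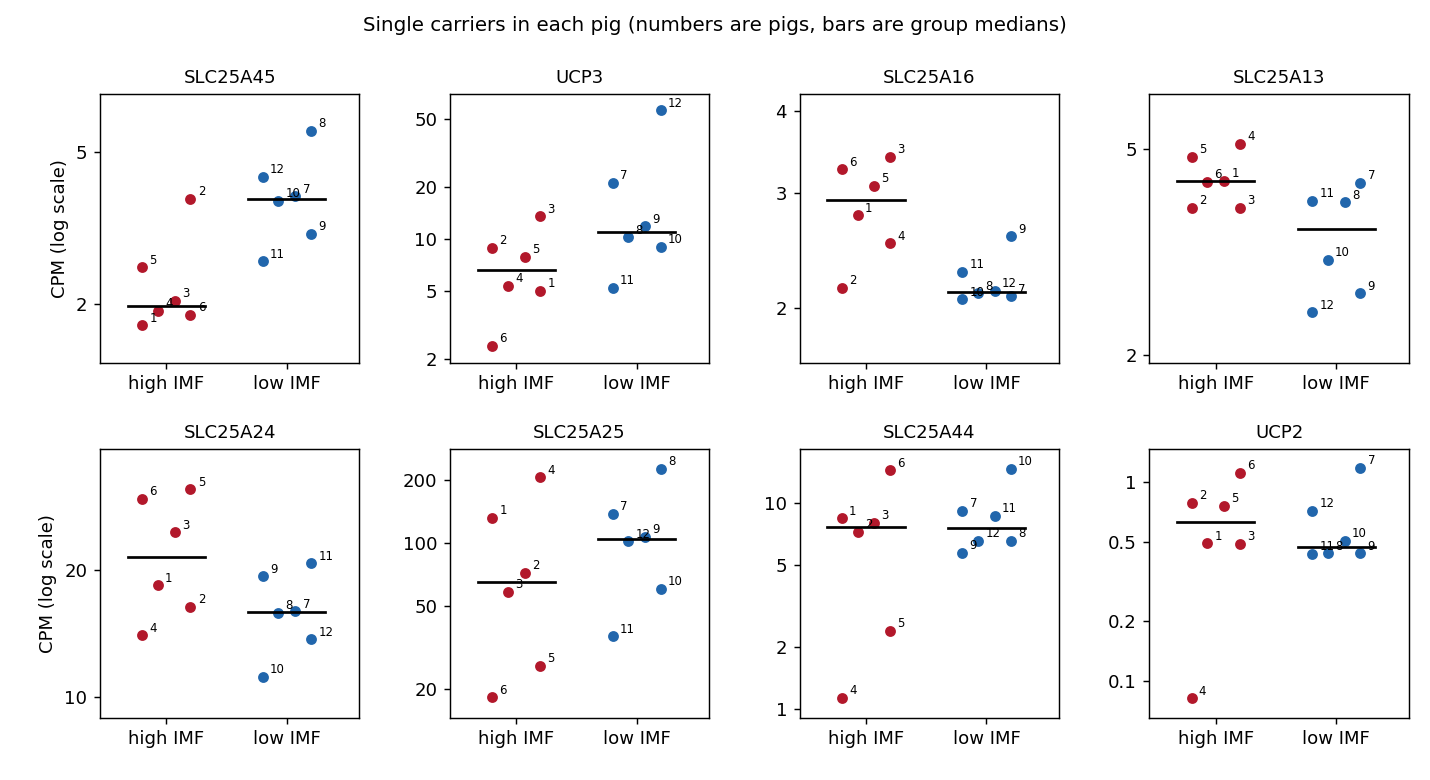
Level of 8 carriers in each pig, in CPM on a log axis, with pig numbers beside the points and a bar at each group's median. SLC25A45 separates the groups except for pig 2, UCP3 reaches 56.2 CPM in pig 12, and SLC25A44 and UCP2 are at 1.14 and 0.0819 CPM in pig 4.

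The dominant carriers had a log2FC close to 0. SLC25A3 had 277.8, 375.5 and 414.7 CPM in high IMF and 289.9, 371.1 and 446.6 CPM in low IMF, with a log2FC of 0.041 (95% interval -0.27 to 0.35). SLC25A4 had 240.0, 409.2 and 665.9 CPM in high IMF and 342.7, 410.9 and 463.0 CPM in low IMF, with a log2FC of -0.073 (95% interval -0.53 to 0.38). The SLC25A4 values of all 6 low IMF pigs lay inside the range of the high IMF pigs. The interval of SLC25A4 was wider than that of SLC25A3. SLC25A11 had a log2FC of 0.28 (SE 0.25), SLC25A36 of -0.41 (SE 0.21) and SLC25A46 of -0.19 (SE 0.11), with adjusted p of 0.719, 0.513 and 0.552. The log2FC of SLC25A11 was 0.114 without pig 4 and 0.127 without pig 7, and that of SLC25A36 was -0.241 without pig 5.

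By role, the 5 tested carriers of the amino acid list (SLC25A15, SLC25A38, SLC25A44, SLC25A45 and SLC25A47) all had a log2FC above 0, with a median of 0.31, and 1 of them had an unadjusted p of at most 0.05. SLC25A47 rested on 4 to 42 counts per pig, and SLC25A44 fell to 0.075 without pig 4. Of the 9 tested carriers of aspartate, glutamate, keto and dicarboxylic acids, 8 had a log2FC below 0, with SLC25A11 as the exception, a median of -0.17, and 1 at that threshold. The aspartate/glutamate carriers SLC25A12 (-0.14) and SLC25A13 (-0.37) also move amino acids but were placed in this second list. The lists were drawn up with earlier results known, so these counts depend on where they were cut. Of the 8 cofactor, nucleotide and coenzyme carriers, 6 were below 0, and of the 3 tested ADP/ATP and phosphate carriers 2 were. Over all genes tested 48.4% were above 0 and 10.4% had an unadjusted p of at most 0.05, and no difference between these role groups was tested.

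Pigs of the same group differed more in some carriers than the groups differed from each other. The median within-group SD of the members was 0.36 on the log2 CPM scale, and 0.32 over all genes tested. An SD above 0.5 was found in 12 of 37 members (32.4%) and in 27.9% of all genes. SLC25A25 (chr1:268531752-268575195) had the largest spread of the members, with an SD of 1.15. It had 18.3, 65.4 and 206.6 CPM in high IMF and 35.8, 104.5 and 226.5 CPM in low IMF, and its counts ran from 2306 in pig 6 to 33998 in pig 8. Its log2FC of 0.38 (SE 0.55) was smaller than this spread, and ran from 0.065 without pig 8 to 0.862 without pig 4. SLC25A35 had an SD of 1.11 at 10 to 105 counts per pig, with the highest levels in pigs 6, 3 and 10. UCP3 had an SD of 1.04, and UCP2 of 0.98, which was 0.535 without pig 4.

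SLC25A44 (chr4:93837004-93857154), the carrier of branched-chain amino acids, had an SD of 1.02. It had 1.14, 7.64 and 14.4 CPM in high IMF and 5.72, 7.60 and 14.7 CPM in low IMF, with a log2FC of 0.30 (SE 0.46, adjusted p = 0.857). Pigs 4 and 5, both with high IMF, were low at 1.14 and 2.40 CPM, and pigs 6 and 10 were high. Without pig 4 its SD was 0.756 and its log2FC 0.075, and without pig 6 its log2FC was 0.65. Pig 4 was lowest of all pigs for SLC25A44, SLC25A11, SLC25A15 and UCP2, and was highest for SLC25A13, SLC25A14 and SLC25A26. At the other end, SLC25A26 had the smallest SD of the members, 0.095, with 19.8 to 25.7 CPM in all pigs.

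SLC25A3 and SLC25A12 divided the pigs in the same way. Pigs 1, 2, 8 and 9, that is 2 pigs of each group, had 277.8 to 293.8 CPM of SLC25A3 and 95.3 to 102.0 CPM of SLC25A12. The other 8 pigs had 358.9 to 446.6 CPM and 124.3 to 179.2 CPM. The same 4 pigs were the lowest in the CPM summed over 11 genes of mitochondrial content (citrate synthase and subunits of the respiratory chain and ATP synthase), at 1554 to 1815, while the other 8 had 2107 to 2966. The division was not sharp for SLC25A12, where pig 12, at 124.3 CPM, lay about midway between pig 8 (102.0 CPM) and pig 10 (147.5 CPM). Over all 12 pigs Pearson's r of log2 CPM was 0.938 and Spearman's rho 0.881, and r was 0.91 without pigs 2 and 1. Among the 8 upper pigs, which were picked by these same values, Pearson's r was 0.568 (exact permutation p = 0.0893, two-sided). Spearman's rho was 0.762 there (exact permutation p = 0.0368), and r was 0.725 without pigs 7 and 5. This pair stood out of 29 pairs, which were all pairs of the 8 highest carriers and the pair of UCP2 and UCP3. These values are therefore a description, and the part of mitochondrial content in them was not tested. SLC25A4 did not follow the division, with 472.8 CPM in pig 1, 463.0 in pig 8, 360.2 in pig 9 and 240.0 in pig 2.

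**Figure D5:**
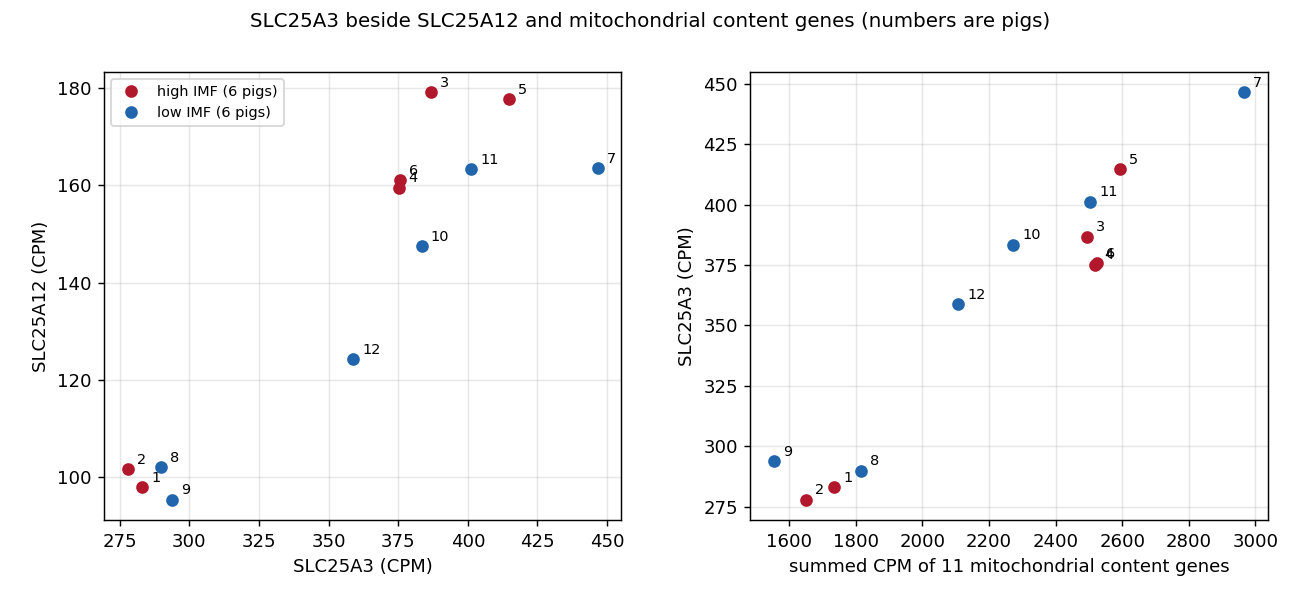
SLC25A3 against SLC25A12 (left) and SLC25A3 against the summed CPM of 11 mitochondrial content genes (right), in CPM, 1 point per pig with its number. Pigs 1, 2, 8 and 9, with 2 from each group, lie lowest in both plots, with at most 293.8 CPM of SLC25A3.

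Genes that work with the carriers were read beside them. None of 13 tested genes of the carrier import machinery (TIM22 and TOM complex subunits and the small TIM chaperones) had an unadjusted p of at most 0.05 by edgeR, and their median log2FC was -0.056. None of 9 enzymes of the shuttles and of phosphate transfer did, with a median of 0.0087, and none of the 11 mitochondrial content genes, with a median of -0.053. Of 19 other mitochondrial transport proteins, 1 did (5.26%), where 10.4% of all genes did. This was LETM1, a cation/proton exchanger of the inner membrane, with 8.84, 12.3 and 17.4 CPM in high IMF, 12.0, 18.9 and 20.2 CPM in low IMF and a log2FC of 0.45 (SE 0.17, unadjusted p = 0.023, adjusted p = 0.441).

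Of the 3 fast fibre genes with a row, ATP2A1, the calcium pump of fast fibres, had an unadjusted p of at most 0.05, with a log2FC of 0.46 (SE 0.13, unadjusted p = 0.0034, adjusted p = 0.367 by edgeR). The troponin genes TNNT3 and TNNI2 had a log2FC of 0.16 (SE 0.11, adjusted p = 0.63) and 0.043 (SE 0.10, adjusted p = 0.916). The summed CPM of these 3 genes were 13210, 16610 and 17970 in high IMF and 17180, 18890 and 22290 in low IMF (exact permutation p = 0.0065, two-sided, and 0.0714 when adjusted by Benjamini-Hochberg over 11 list sums). The 6 slow fibre genes had sums of 1941, 3632 and 5054 in high IMF and 1393, 2467 and 5975 in low IMF (exact permutation p = 0.502). The pig with the highest UCP3, pig 12, had the lowest slow fibre sum, and pig 7, second for UCP3, had the highest sum of both fibre lists. The adipocyte sum had an exact permutation p of 0.723. The part of fibre type in the values of UCP3, SLC25A45 and the other carriers was not tested.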

How the data were processed

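RNA of Semimembranosus muscle was sequenced in pairs of reads from stranded, polyadenylated libraries of 12 pigs. The authors trimmed the reads with Trimmomatic, aligned them to Sscrofa11.1 with HISAT2, assembled known transcripts with StringTie, counted with HTSeq and deposited whole-number counts per Ensembl gene that are not normalized. Which annotation release and strand option were used, and how multi-mapped reads were treated, is not given in the sources used here. Values of 3 and 6 were more frequent in the table than 4 and 7 (4925 and 3623 against 2262 and 1601). Every library also held more counts than the input reads that the study's mapping statistics list for any pig. Counts were thus not all separate fragments. Nothing in the labels names a sequencing batch or lane by pig. The study slaughtered the pigs on different days and sequenced the libraries in pairs per lane. The day and lane of each pig are not given in the sources used here.

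Groups and pig numbers came from the sample labels. The gene name table named 14857 of 25880 genes, of which 5539 had no count in any pig. Genes that share near-identical or overlapping sequence are uncertain. Members were placed by symbol on the RefSeq annotation of Sscrofa11.1, which gave positions, lengths and upstream windows. The members, the role lists and the named genes were chosen with earlier results of these data known. The rule for named genes took the 8 members with the highest median CPM per kb of exon, UCP2, UCP3, members with an unadjusted p of at most 0.05 or with groups that did not overlap, and the 4 members with the largest within-group SD. The values of 1 tested member are not reported here, and it is kept in the counts over all members. Other genes in the text were named after their values were seen.

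TMM factors and quasi-likelihood fits of edgeR 4.0.16 (R 4.3.3) were computed on the 14262 genes that passed filterByExpr, with a model of group alone that left 10 residual degrees of freedom. Benjamini-Hochberg adjustment covered all of these genes, and the standard error is the log2FC divided by the root of the test statistic. CPM used the TMM library sizes, and log2 CPM a prior count of 2. Differences in mean log2 CPM of single genes were also tested by two-sided exact permutation, whose smallest possible p is 0.00216 (Python 3.11.15, scipy 1.17.1). The common biological coefficient of variation was 0.332. Counting error was not compared with the variation between pigs gene by gene. Pigs are separate animals, so the p-values set the difference between groups against the spread between animals. Alternatives were other normalizations and filters, DESeq2 1.42.0, limma-voom (limma 3.58.1), sex and age covariates, pigs left out and coding in place of exon length. The scripts were tested on simulated data.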

Additional observations from a re-analysis of the deposited data

Results flagged for a closer look

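Of 74 sets of 6 pigs (37 carriers in 2 groups), 4 held 1 pig whose log2 CPM lay further from its group than Dixon's test allows. Chance gives about 1 in 20, and 4 of 74 is close to that rate. SLC25A11, the oxoglutarate/malate carrier, was lowest in pig 4 of the high IMF group at 18.4 CPM, with the nearest pig at 42.1 CPM. In the low IMF group SLC25A11 was highest in pig 7 at 88.6 CPM, with the nearest pig at 58.8 CPM. UCP2 was lowest in pig 4 at 0.0819 CPM, with the nearest high IMF pig at 0.490 CPM. SLC25A33, a pyrimidine nucleotide carrier, was highest in pig 12 of the low IMF group at 4.43 CPM, with the nearest pig at 2.64 CPM. Pig 12 was also the pig with the highest UCP3, and pig 7 had the highest level of UCP2 and SLC25A3. Dixon's test was not run over all genes, and only the highest and lowest pig of each gene were counted there, which is another measure. Over all genes tested, pig 7 was the highest pig in 13.5% and the lowest in 13.9%. Pig 12 was the highest in 9.34%, and pig 4 the lowest in 7.12%. Single pigs ranged from 3.96% to 15.3% for the highest and from 3.81% to 13.9% for the lowest. The cause of these values was not tested.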

How the results depend on the processing

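No SLC25 member reached an adjusted p of 0.05 under any alternative that was run, but few genes of any kind did. DESeq2 called 93 of 14262 genes with the main filter and 101 of 20341 genes with at least 1 count. The edgeR fits without pig 5 and without pig 10 called 1 of 14423 genes each. Every other fit called 0 genes. The median log2FC of the members stayed below 0 throughout, between -0.107 (without pig 7) and -0.017 (without pig 6) with single pigs left out. The number of members with an unadjusted p of at most 0.05 was 5 with edgeR and 3 with limma-voom, beside 1486 and 1423 of 14262 genes. It ran from 3 to 9 with single pigs left out. It was 3 without pig 5, 10 or 12, beside 1301 of 14423, 1451 of 14423 and 1376 of 14350 genes. It was 8 without pig 1 (1661 of 14369 genes) and 9 without pig 11 (1572 of 14415 genes). In the 6 pigs whose Y-linked counts went with the labelled sex (4 high, 2 low) it was 1, UCP3, beside 607 of 14972 genes. The number of members whose groups did not overlap ran from 0 to 1 with single pigs left out. The 1 was SLC25A45 without pig 2, where 270 of 14364 genes did not overlap. It was also 1 in those 6 pigs (SLC25A26), where 1784 of 14972 genes did not overlap. The share of SLC25A3 and SLC25A4 in the summed level was 59.7% with coding length, a change of the length alone. UCP2, near 0, changed sign to 0.001 with DESeq2 over all genes, 0.221 with limma-voom, 0.115 with labelled age as a covariate and, with single pigs left out, ran from -0.281 to 0.242. It was 0.075 without pig 2, 0.061 without pig 5, 0.086 without pig 8, 0.076 without pig 9, 0.045 without pig 10 and 0.074 without pig 11. SLC25A3 was -0.018 without pig 1, -0.019 without pig 2 and -0.022 without pig 7, in a range of -0.022 to 0.109. SLC25A4 was 0.098 without pig 3, in a range of -0.195 to 0.098, and 0.321 in the 6 pigs. There SLC25A25 was -0.631, SLC25A12 0.152 and SLC25A44 -0.028. The cause of these changes was not tested. With single pigs left out, UCP3 ranged from 0.697 without pig 12 to 1.68 without pig 3, and SLC25A45 from 0.605 to 0.933, and in the 6 pigs they were 2.52 and 0.568. No paired analysis was possible because the pig numbers are not shared between the groups. Depth limits UCP2, SLC25A35 and SLC25A47 most, with counts down to 12, 10 and 4 in single pigs. The number of pigs, 12, limits every member.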
